A study of Mus musculus with 6 samples.

Results

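The mRNA transcripts of respiratory chain complexes I, III and V were described in the liver of DUhTP (marathon) mice, a line selected over the long term for high treadmill performance, and of unselected DUC control mice. Members were all probe sets with exactly 1 gene symbol in the array annotation whose symbol begins with Nduf, Uqcr or Atp5, or is Cyc1. The rule gave 118 probe sets of 65 genes among 22626 tested probe sets. Of the 118, 74 probe sets (39 genes) are counted with complex I, 16 (9 genes) with complex III and 28 (17 genes) with complex V. Both lines go back to the same cross of outbred and inbred founder lines and are kept without inbreeding, and all mice were 70 days old. Each line was represented by 3 arrays. The study's methods describe male mice and pools of RNA, whereas the sample labels describe a mouse each, so that a p here measures only the spread between arrays, which may be that of pools or of mice. Neither line was trained according to the study, and the comparison asks how the liver of a line bred for running differs from that of its control.

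Complex I takes electrons from NADH and hands them to ubiquinone, complex III passes them on to cytochrome c, and complex V uses the resulting proton gradient to make ATP. Complex I is built from core subunits, which carry the redox centres, from accessory subunits around them and with the help of assembly factors that are not part of the finished enzyme. Counted with complex I by name are 6 probe sets of assembly factors and 1 of Ndufa4, which is found with complex IV. All members described here are encoded in the nucleus, and the subunits encoded by mitochondrial DNA are not analysed here. The liver is rich in mitochondria, and its respiratory chain pays for gluconeogenesis, urea synthesis and the synthesis of lipids. In a whole tissue, fewer cells of a type and less RNA per cell cannot be told apart.

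The intensity of a probe set is given in the arbitrary linear units of the PLIER summary, and levels of different probe sets are not compared. FC is the ratio of the geometric means of DUhTP and DUC mice, with a negative sign where DUhTP was lower. The median intensity per array lay between 53.1 and 57.0, and log2 intensities correlated at 0.959 to 0.976 within a line and at 0.950 to 0.963 between the lines. Of the 118 members, 108 lay at or above the median intensity of all probe sets, 56.6. The arrays carried the defining transcripts of hepatocytes, and albumin (Alb) lay between 13505 and 14468 in all 6 arrays. The summed intensity of 6 hepatocyte marker genes was 73157 to 73827 in DUhTP and 75784 to 79035 in DUC arrays, with 0 of 6 called. Kupffer cell or macrophage markers summed to 4208 to 5288 in DUhTP and 2859 to 3858 in DUC arrays, with 1 of 9 genes called (Clec4f, FC 2.18). With 16 added, 6 of these genes were called higher and 1 lower (Marco, FC -1.52 without the constant). Exocrine pancreas markers summed to 967 to 3752 in DUhTP and 4122 to 7925 in DUC arrays, with 0 of 7 called and 3 called lower with 16 added. A marker gene counts as called when any of its probe sets was. Over all probe sets 2.41% were called, and 8.62% with 16 added. Endothelial markers (2277 to 2608 against 1964 to 2172, 0 of 6 called) and erythroid markers (1222 to 1602 against 706 to 799, 1 of 2 called) did not overlap between the lines either. Members of both lists differed in direction. By the brightest probe set, 5 endothelial genes were higher and 1 lower (Lyve1, FC -1.46). The erythroid sum was mostly Alas2 (FC 1.85), while Hba-a1 had an FC of -1.06. The stellate or fibroblast markers overlapped in sum (1904 to 2445 against 1995 to 2285), with 1 of 6 called (Col3a1, FC 1.91). The part of these markers in the results below was not tested.

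In the moderated test of limma, with p adjusted over all probe sets by Benjamini-Hochberg, 2 of the 118 members (1.69%) passed an adjusted p of 0.05, while 2.41% of all tested probe sets passed. Both were higher in DUhTP mice, both are counted with complex I, and they represent the core subunit gene Ndufv1 and the assembly factor gene Ndufaf1. No probe set of complex III or complex V passed. At an FC over 2 as well, only the Ndufv1 probe set passed, beside 1.45% of all probe sets. With a constant of 16 added to every intensity, which shrinks the fold changes of dim probe sets, 7 members passed (5.93%, 5 higher and 2 lower) beside 8.62% of all probe sets. With limma-trend, which lets the expected spread follow the level, 15 passed (12.7%, 13 higher and 2 lower) beside 10.4%. At an unadjusted p under 0.05 there were 14 probe sets of complex I (10 higher, 4 lower), 0 of complex III and 4 of complex V (3 higher, 1 lower). Together these 18 are 15.3% of the members, and 21.1% of all probe sets passed that threshold. All 3 DUhTP arrays lay above all 3 DUC arrays in 24 members (20.3%) and below them in 13, together 31.4%. Over all probe sets 13.6% lay above and 15.8% below, together 29.4%. The median log2 fold change was 0.08 in complex I, 0.04 in complex III and 0.02 in complex V, and -0.02 over all probe sets. Within complex I, 51 of 74 log2 fold changes were positive. This was 68.9%, beside 48.1% of all probe sets, and probe sets of the same gene are not independent.

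**Figure D1:**
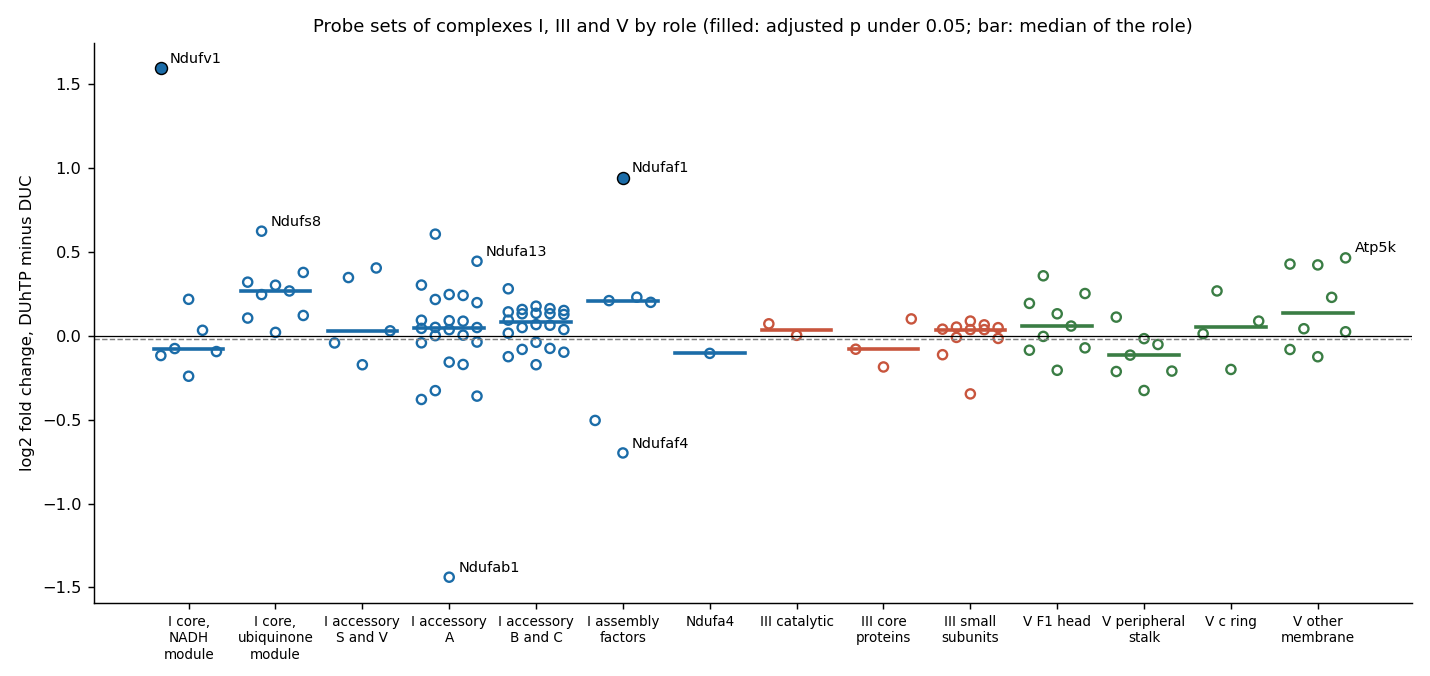
Log2 fold change of DUhTP minus DUC (y axis) for each of the 118 probe sets, grouped by the role of the protein in complex I (blue), III (orange) and V (green). Filled points passed an adjusted p of 0.05, bars are the median of a role and the dashed line is the median of all probe sets, -0.02. The probe sets of Ndufv1 at 1.60 and Ndufaf1 at 0.94 stand above the other members, and complex III stays close to 0 apart from a dim Uqcrq probe set at -0.35.

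Ndufv1, which encodes the core subunit that binds NADH and receives its electrons, showed the highest FC of all members on probe set 1415966_a_at. Its intensity was 1755, 1810 and 1540 in DUhTP mice, against 477, 615 and 603 in DUC mice. The lines were thus far apart on this probe set, with 1702 ± 143 in DUhTP and 565 ± 76.2 in DUC mice (mean ± SD, n = 3 arrays each). The FC was 3.02, the log2 fold change 1.60 with a standard error of 0.15, and the adjusted p of limma 0.0141. The other probe sets of the same gene gave smaller values. Probe set 1456015_x_at was at 2042, 2055 and 1781 in DUhTP and 1713, 1752 and 1583 in DUC arrays (FC 1.16, adjusted p 0.343 in limma), without overlap. Probe set 1415967_at was at 1544, 1579 and 1308 against 1469, 1542 and 1314 (FC 1.02, adjusted p 0.914 in limma), so that here the lines overlapped.

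The disagreement within Ndufv1 was measured inside each array, a comparison chosen after the values had been seen. The log2 ratio of 1415966_a_at over 1456015_x_at was -0.20 ± 0.02 in DUhTP and -1.58 ± 0.23 in DUC arrays (mean ± SD, n = 3). Over 1415967_at it was 0.21 ± 0.03 and -1.36 ± 0.25. The differences were 1.38 and 1.56, given as a description with no test. The called difference of Ndufv1 rests on 1 of its 3 probe sets. Which transcripts or alleles the 3 probe sets detect was not tested. The call of 1415966_a_at held without DUhTP replicate 3 (adjusted p 0.0487 in limma) and was lost without any other array (0.0513 to 0.0740). With 16 added the adjusted p was 0.000148.

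Ndufaf1 encodes an assembly factor for the membrane arm of complex I and has 1 probe set, 1423711_at. Its intensity was 414, 383 and 377 in DUhTP mice, against 210, 214 and 187 in DUC mice. The FC was 1.92, the log2 fold change 0.94 with a standard error of 0.11 and the adjusted p of limma 0.0238. All DUhTP arrays were higher by a margin well above the spread within a line. The call was lost without any 1 array, at adjusted p of 0.0639 to 0.110, and was kept with 16 added (0.00128).

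**Figure D2:**
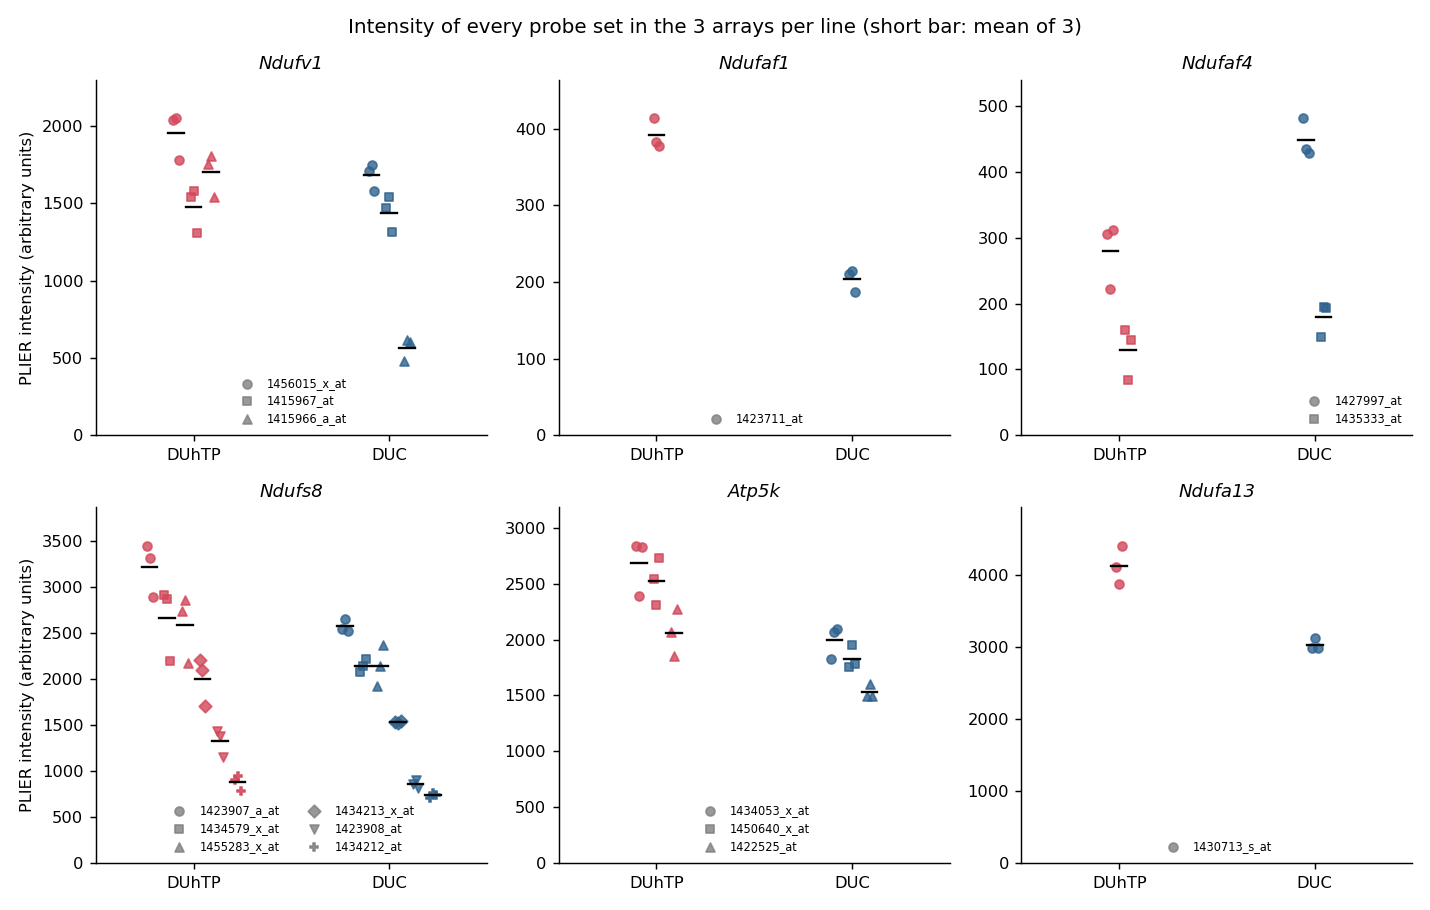
Intensity in arbitrary PLIER units (y axis, linear, from 0) of every probe set of Ndufv1, Ndufaf1, Ndufaf4, Ndufs8, Atp5k and Ndufa13 in the 3 DUhTP (red) and 3 DUC (blue) arrays, with symbols for probe sets and short bars for the mean of 3. Ndufv1 has an FC of 3.02 on 1415966_a_at and of 1.16 and 1.02 on the other probe sets, whereas the 6 probe sets of Ndufs8 and the 3 of Atp5k all have the higher mean in DUhTP.

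The other assembly factors named by the prefix did not pass the test. Ndufaf4, which acts early in the assembly of the ubiquinone-binding part, was at 306, 222 and 312 in DUhTP and 483, 435 and 429 in DUC arrays on 1427997_at, without overlap. Its FC was -1.62 with an adjusted p of 0.0952 in limma. With 16 added the adjusted p was 0.0200. Its second probe set, 1435333_at, had an FC of -1.42 (adjusted p 0.357 in limma) and overlapped between the lines. Ndufaf3, a partner of Ndufaf4 in assembly, had an FC of 1.17, Ndufaf5 of 1.15 and Ndufaf7 of 1.16, with adjusted p from 0.389 to 0.639 in limma. Over the 6 probe sets of assembly factors the log2 fold change ran from -0.70 to 0.94.

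The promoters of these genes and of Atp5k, the gene with the highest FC in complex V, are shown. The reason is that nuclear respiratory genes are known targets of the factors NRF1 and GABPA (an ETS factor). Other regulators of mitochondrial biogenesis are described below, and levels of NRF1 and GABPA themselves are not given. Each is the 250 bases before the transcription start from RefSeq (GRCm38.p6), read 5′ to 3′ on the strand of the gene. Capitals mark the motifs found, and a window without capitals holds none of them. Ndufv1 lies at chr19:4012756-4013005 (minus strand), Ndufaf1 at chr2:119662835-119663084 (minus strand), Ndufaf4 at chr4:24897833-24898082 (plus strand) and Atp5k at chr5:108434400-108434649 (minus strand).
Ndufv1: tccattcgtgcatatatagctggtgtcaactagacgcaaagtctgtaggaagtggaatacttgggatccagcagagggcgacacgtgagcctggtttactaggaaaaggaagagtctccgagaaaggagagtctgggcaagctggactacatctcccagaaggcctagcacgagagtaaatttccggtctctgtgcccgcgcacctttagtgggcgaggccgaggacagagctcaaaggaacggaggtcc
Ndufaf1: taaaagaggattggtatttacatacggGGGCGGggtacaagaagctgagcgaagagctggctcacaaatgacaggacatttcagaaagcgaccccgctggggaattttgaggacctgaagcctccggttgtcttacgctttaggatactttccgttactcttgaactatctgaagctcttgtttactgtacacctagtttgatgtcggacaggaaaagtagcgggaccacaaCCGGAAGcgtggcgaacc
Ndufaf4: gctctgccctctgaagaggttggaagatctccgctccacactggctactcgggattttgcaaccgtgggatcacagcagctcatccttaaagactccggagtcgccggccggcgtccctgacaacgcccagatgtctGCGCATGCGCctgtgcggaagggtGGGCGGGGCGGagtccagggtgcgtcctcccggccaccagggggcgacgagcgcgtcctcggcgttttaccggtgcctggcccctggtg
Atp5k: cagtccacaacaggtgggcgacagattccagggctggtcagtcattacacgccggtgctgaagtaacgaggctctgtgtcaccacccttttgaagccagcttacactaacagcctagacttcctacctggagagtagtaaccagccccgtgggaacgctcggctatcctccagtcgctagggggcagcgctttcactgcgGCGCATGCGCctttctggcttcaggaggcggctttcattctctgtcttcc

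Ndufaf1 holds the ETS motif CCGGAAG from 18 to 12 bases before the start and the Sp1 motif GGGCGG from 223 to 218 bases before it. The NRF1 motif searched is GCGCA and GCGC with any 1 base between them. Ndufaf4 holds it, as GCGCATGCGC, from 113 to 104 bases and a pair of Sp1 motifs that overlap by 1 base from 89 to 79 bases before the start. Atp5k holds the same NRF1 letters from 50 to 41 bases before the start. Promoters were available for 56 of the 65 genes, 61 windows in all, and both strands were searched. The NRF1 motif was found in 9 of 61 windows (14.8%) beside 3.74% of all 32851 windows, and the ETS motif in 10 (16.4%) beside 6.91%. The ERR motif AAGGTCA stood in 4 windows (6.56%, all windows 4.08%), the YY1 motif AAGATGG in 1 (1.64%, 4.49%), the Sp1 motif in 21 (34.4%, 32.7%) and TATAAA in 7 (11.5%, 12.4%). By complex, NRF1 motifs stood in 5 of 38 windows of complex I, 0 of 5 of complex III and 4 of 18 of complex V. These are matches of letters and not measured sites.

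Within the core of complex I, all 9 probe sets of Ndufs3, Ndufs7 and Ndufs8 had a positive log2 fold change, with a median of 0.27, but none passed the test, and 6 of the 9 are of Ndufs8 and are not independent. Ndufs8, which carries iron-sulphur clusters on the way to ubiquinone, had FCs from 1.19 to 1.54 over its probe sets. The highest was on 1423908_at, with 1432, 1381 and 1155 in DUhTP and 854, 896 and 816 in DUC arrays (adjusted p 0.0689 in limma, 0.0132 with 16 added). The DUhTP arrays lay above the DUC arrays on 4 of the 6 probe sets, beside 13.6% of all probe sets. On all 6, DUhTP replicate 3 was the lowest of its line. Ndufs3 (FC 1.08) and Ndufs7 (FC 1.09 and 1.01) overlapped between the lines.

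The core partners of Ndufv1 in the NADH-oxidising part of the enzyme, Ndufv2 and Ndufs1, had small negative values. The accessory subunit Ndufv3 of the same part had a positive value, an FC of 1.27. Ndufv2 was at FC -1.07, -1.08 and -1.05 over its 3 probe sets (adjusted p 0.536 to 0.723 in limma). Its probe sets 1452692_a_at and 1438159_x_at did not overlap between the lines, with DUhTP below. Ndufs1, the largest core subunit of this part, was at 799, 686 and 828 in DUhTP and 888, 934 and 903 in DUC arrays, an FC of -1.18 (adjusted p 0.310 in limma) without overlap.

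Ndufs8 and Ndufv1 are near each other on chromosome 19, with 8 protein-coding genes between them in GRCm38.p6, 5 of which were measured with 1 symbol. None of these 5 passed the test without an added constant. Acy3 had the highest FC among them, 1.71 (adjusted p 0.0752 in limma, 0.0129 with 16 added), with 389, 381 and 281 in DUhTP and 192, 222 and 194 in DUC arrays. Aldh3b1 followed at 1.52, and Doc2g, Nudt8 and Unc93b1 were at 1.22, 1.098 and 1.04. The FCs of the neighbours thus ranged from close to 1 up to that of Ndufs8 and beyond.

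Accessory subunits of complex I showed differences in both directions, and none passed the test. Ndufa13, an accessory subunit also known as GRIM-19, was at 4102, 3867 and 4404 in DUhTP and 2982, 3116 and 2982 in DUC arrays (FC 1.36, adjusted p 0.0936 in limma, 0.0333 with 16 added). Ndufs5 had an FC of 1.32 (adjusted p 0.130 in limma), with 1529 to 1655 in DUhTP and 1103 to 1305 in DUC arrays. Ndufv3, an accessory subunit that sits with the NADH-oxidising part, had an FC of 1.27 (adjusted p 0.128 in limma), with 3035 to 3225 against 2424 to 2448. These subunits did not overlap between the lines. Ndufa3 was similar at FC 1.19 and 1.18 on its probe sets, again without overlap.

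In the other direction, Ndufa6 was at 1854, 1728 and 1983 in DUhTP and 2371, 2662 and 2215 in DUC arrays (FC -1.30, adjusted p 0.165 in limma). Ndufa5 had FCs of -1.28 and -1.25 on its probe sets and Ndufa1 of -1.11, all without overlap. The 24 probe sets of the NDUFA series had a median log2 fold change of 0.05. Subunits of the NDUFB and NDUFC series belong to the membrane arm. Their 22 probe sets ran from a log2 fold change of -0.17 to 0.28 with a median of 0.08. Of these, 0 passed an unadjusted p of 0.05, and 1 did not overlap (Ndufb7 on 1448331_at, FC 1.21). Among all probe sets 21.1% passed that p and 29.4% did not overlap.

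For some genes the probe sets disagreed. Of the 33 genes with several probe sets, 22 had all of them on the same side of 0 and 11 did not, and in 2 genes the log2 fold changes spanned more than 1: Ndufv1 (1.56) and Ndufab1 (2.04). Ndufab1 encodes the mitochondrial acyl carrier protein, which is also a subunit of complex I. Its dim probe set 1435934_at was at 6.74, 3.72 and 10.1 in DUhTP and 13.9, 21.9 and 16.6 in DUC arrays (FC -2.71, adjusted p 0.121 in limma). With 16 added the FC was -1.47 and the adjusted p 0.0399 in limma. Probe set 1428160_at had an FC of 1.52 (adjusted p 0.357 in limma), with DUhTP replicate 3 at 427 beside 202 and 243. The brightest probe set, 1428159_s_at, was at 1711 to 2087 against 1643 to 2028 (FC 1.03). Ndufa7 had 5 probe sets with FCs from -1.13 to 1.23, the highest on 1450818_a_at (adjusted p 0.195 in limma). Ndufa4, named for complex I but found with complex IV, had an FC of -1.08.

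Complex III showed no difference that exceeded the spread between arrays. None of its 16 probe sets passed an unadjusted p of 0.05 or, with 16 added, an adjusted p of 0.05. In all of them the lines overlapped. Among all probe sets 21.1% passed the unadjusted p and 29.4% did not overlap. The catalytic subunits cytochrome c1 (Cyc1, FC 1.05) and the Rieske iron-sulphur protein (Uqcrfs1, FC 1.002) were at 3436 to 4002 and 2921 to 3380 in DUhTP and at 3484 to 3643 and 3014 to 3251 in DUC arrays. The core proteins had FCs of 1.07 (Uqcrc1), -1.14 and -1.06 (Uqcrc2). Small subunits were as close, with Uqcrb at FC 1.04, Uqcrh at 1.03, Uqcr10 at 1.03, Uqcr11 at -1.01 and Uqcrq at 1.05 on their brightest probe sets. Over the brightest probe set of each of the 9 genes, the 95% confidence limits of the log2 fold change reached from -0.57 to 0.45, with the lower limit set by Uqcrc2 and the upper by Uqcrc1. Other genes had narrower limits, such as -0.27 to 0.27 for Uqcrfs1.

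In complex V the highest FCs belonged to a subunit of the membrane part, again short of the adjusted threshold. Atp5k, which encodes subunit e, needed for the pairing of ATP synthases, had positive values on all 3 probe sets, without overlap between the lines. On 1450640_x_at the intensity was 2540, 2308 and 2727 in DUhTP, against 1756, 1949 and 1777 in DUC arrays (FC 1.38, adjusted p 0.106 in limma, 0.0359 with 16 added). The others had FCs of 1.35 and 1.34 (adjusted p 0.141 and 0.133 in limma). Atp5mpl, another small membrane subunit, had an FC of 1.17 without overlap and Atp5l of -1.09, also without overlap. Atp5md (-1.06) and Atp5j2 (1.02 and 1.03) overlapped between the lines. Atp5g1, 1 of 3 genes for the ring-forming subunit c, had an FC of 1.20 (adjusted p 0.254 in limma), and Atp5g2 and Atp5g3 had 1.06 and 1.01 on their brightest probe sets.

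The peripheral stalk, which holds the catalytic head in place, had negative values in 6 of 7 probe sets with a median log2 fold change of -0.11. These probe sets are of 4 genes and are not independent, and 11745 of all 22626 probe sets were negative. With quantile normalization or with the array medians subtracted, 5 of 7 were negative. Atp5pb (subunit b) was at 3956, 3258 and 3451 in DUhTP and 4152, 4299 and 4905 in DUC arrays on 1433562_s_at (FC -1.25, adjusted p 0.233 in limma). Atp5h (subunit d) had FCs of -1.16 and -1.08, Atp5j was at -1.04, and Atp5o was at 1.08 and -1.01. Without overlap were Atp5pb at -1.25 and Atp5h at -1.16, with DUhTP below, and Atp5o at 1.08, with DUhTP above. On their brightest probe sets, subunits of the catalytic head had FCs of -1.06 (Atp5a1), -1.05 (Atp5b), -1.002 (Atp5c1), 1.095 (Atp5d) and 1.14 (Atp5e). Of these only Atp5d did not overlap, with DUhTP above. The other probe sets of Atp5a1 separated the lines in opposite directions. They had FCs of -1.15 on 1449710_s_at and 1.28 on 1420037_at (adjusted p 0.345 and 0.456 in limma).

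By array, the median log2 deviation of complex I from the mean of the 6 arrays was 0.05, -0.01 and 0.06 in DUhTP and -0.08, 0.03 and -0.05 in DUC mice. DUhTP replicate 2 lay below DUC replicate 2, and the lines overlapped. Complex III ran from -0.12 to 0.12 within the DUhTP arrays alone, wider than the whole range of the DUC arrays, -0.07 to 0.05. Complex V lay between -0.04 and 0.03 in DUhTP and between -0.06 and 0.07 in DUC arrays. DUhTP replicate 2 was also the array with the lowest sum of exocrine pancreas markers, 967, and DUC replicate 2 the array with the highest, 7925. A link between these sums and the deviations was not tested.

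**Figure D3:**
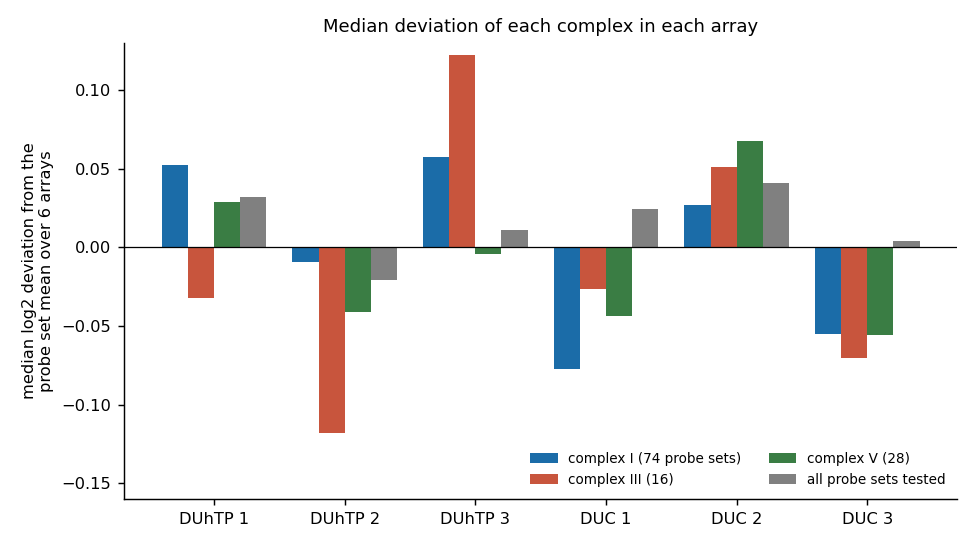
Median log2 deviation from the mean of the 6 arrays (y axis) for complexes I, III and V and for all probe sets, in each of the 3 DUhTP and 3 DUC arrays (x axis). Bars start at 0, and the arrays of the lines overlap in each complex, with DUhTP replicates 2 and 3 at the extremes of complex III (-0.12 and 0.12).

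The rest of the chain was read from comparison lists by the brightest probe set per gene, with a gene counted as called when any of its probe sets passed. Of 6 complex II genes 0 passed, with FCs of 1.18 for Sdhb and -1.12 and 1.104 for Sdha. Of 15 complex IV genes 1 passed, Cox6b2, an isoform known from testis, at 238, 530 and 381 in DUhTP and 10.6, 28.4 and 9.76 in DUC arrays (FC 25.4, adjusted p 0.0200 in limma). With 16 added its FC was 12.2. The other 14 had no called probe set, among them Cox4i1 at FC 1.01. For complex IV this was 1 of 31 probe sets called, beside 2.41% of all probe sets. Electron carriers and other entry points had 0 of 12 genes called, and with 16 added 3 higher (Coq5, Dhodh and Sqor) and 1 lower (Etfdh). These 12 genes have 18 probe sets, and with 16 added 8.62% of all probe sets passed. Genes of ATP and ADP transport and uncoupling had 1 of 11 called, the uncoupling protein gene Ucp1 (FC 3.77), whose mean intensity was only 2.74 in DUhTP and 0.696 in DUC arrays and which did not pass with 16 added (adjusted p 0.383 in limma). The call of Ucp1 was 1 of 27 probe sets of its list, again beside 2.41%. The FC of Cox6b2 was thus far above that of any member of complexes I, III and V.

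Assembly factors outside the prefixes had 1 of 14 genes called, Uqcc2, which helps to assemble complex III. That is 1 of 19 probe sets, beside 2.41% of all probe sets. With 16 added 3 genes were called higher and 1 lower, beside 8.62% of all probe sets. Its probe set 1436810_x_at was at 353, 315 and 288 in DUhTP and 196, 199 and 179 in DUC arrays (FC 1.66, adjusted p 0.0487 in limma), and 1448685_at had an FC of 1.64 (adjusted p 0.0582 in limma). Bcs1l, which inserts the Rieske protein into complex III, had an FC of 1.65 (adjusted p 0.0563 in limma). Acad9, which acts together with Ndufaf1, had FCs of 1.65 and 1.33 on its probe sets, without overlap on either, while Ecsit, another partner of Ndufaf1, was at -1.03. Timmdc1 had an FC of -1.75 (adjusted p 0.135 in limma, 0.0334 with 16 added). The call of Uqcc2 was lost without any 1 array (0.0887 to 0.166).

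Regulators of mitochondrial biogenesis are the transcription factors and coactivators that drive nuclear and mitochondrial genes of the chain. Of 14 such genes 2 were called, both lower in DUhTP mice, and 0 were called higher. They were called on 3 of the 29 probe sets of the list, while 1.05% of all probe sets were called lower. With 16 added 5 genes were called lower and 0 higher, while 1063 of all 22626 probe sets were called lower. Ppargc1b, a coactivator, was at 63.1, 62.3 and 81.4 in DUhTP and 148, 159 and 178 in DUC arrays (FC -2.36, adjusted p 0.0263 in limma). Its relative Ppargc1a had 5 probe sets, all dim and with negative FCs. On 1437751_at it was at 18.3, 15.1 and 18.9 in DUhTP and 37.7, 41.2 and 36.7 in DUC arrays (FC -2.22, adjusted p 0.0228 in limma), and on 1460336_at the FC was -2.28 (adjusted p 0.0499 in limma). The Ppargc1a calls were lost without any 1 array (0.0542 to 0.163), and that of Ppargc1b held only without DUhTP replicate 3 (0.0487, otherwise 0.0700 to 0.118).

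The remaining regulators did not pass without an added constant. Tfb2m, which acts in mitochondrial transcription, had an FC of -1.95 (adjusted p 0.0545 in limma) and Esrra, a nuclear receptor partner of the coactivators, of -1.57 (adjusted p 0.0839 in limma), both without overlap. The brightest probe sets of all 14 genes had negative log2 fold changes, with a median of -0.29 beside -0.02 over all probe sets. With quantile normalization or array medians subtracted, 12 of 14 were negative. Complexes I, III and V had medians of 0.09, 0.04 and 0.01 by the brightest probe set per gene. A link between the regulators and the complexes was not tested.

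**Figure D4:**
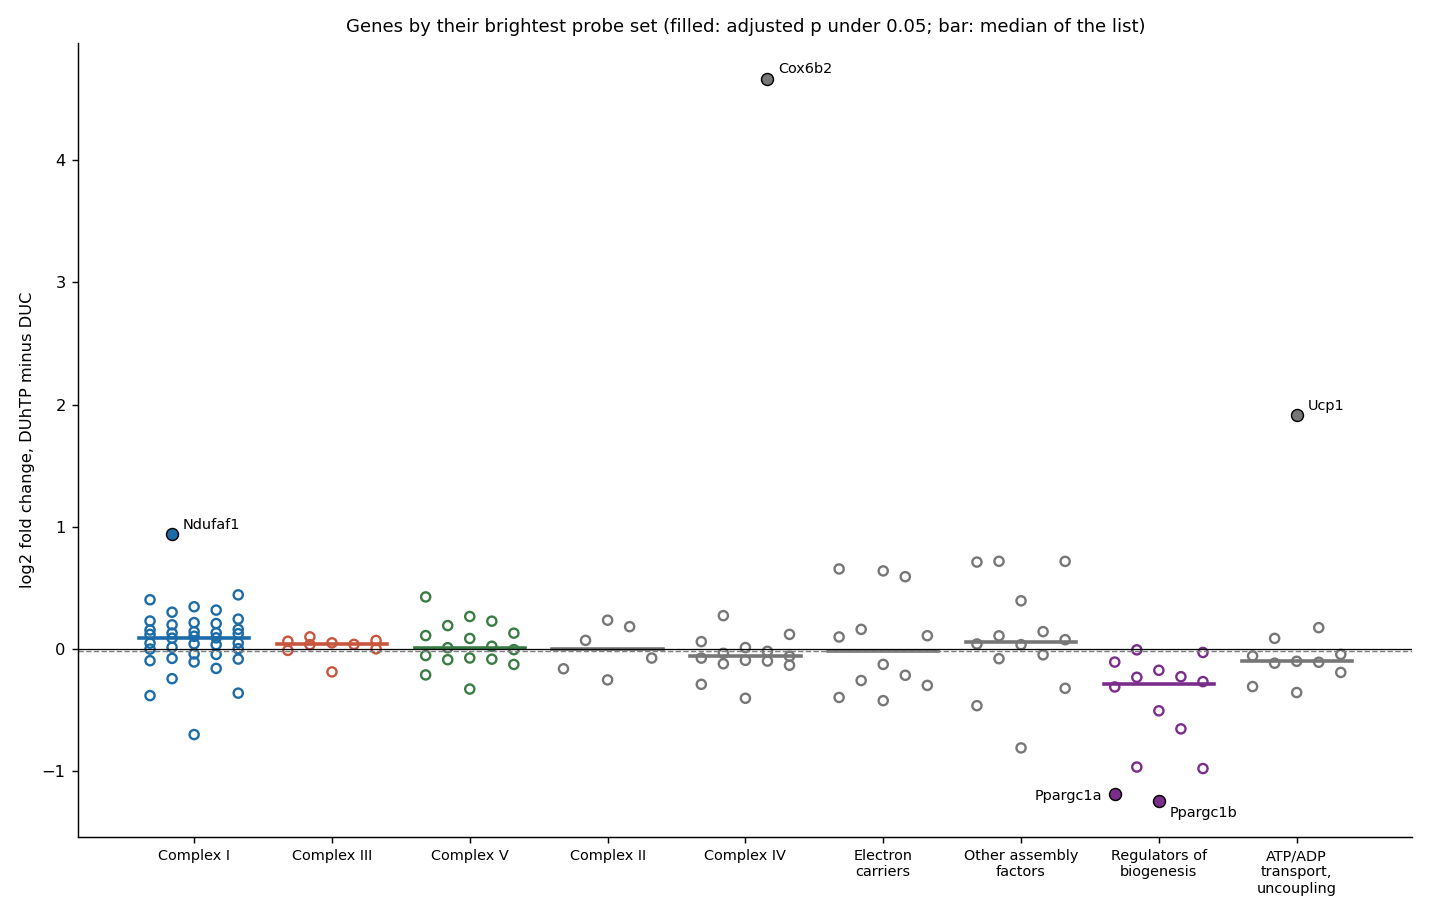
Log2 fold change of DUhTP minus DUC (y axis) of each gene by its brightest probe set in complexes I, III and V and in the comparison lists, with bars for the median of a list and a dashed line for the median of all probe sets, -0.02. Filled points passed an adjusted p of 0.05, so that Ndufv1 and Uqcc2, called on other probe sets, are not filled. The regulators of biogenesis lie below 0 with a median of -0.29, while the complexes scatter around 0.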

How the data were processed

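Liver RNA of 3 DUhTP and 3 DUC samples was hybridized to Affymetrix mouse arrays. The authors scaled the arrays globally (GCOS 1.1.1 in the submitters' processing notes) and summarized probe sets with PLIER, so the deposited values are intensities on a linear scale. The PLIER version and any added constant are not given in the sources used here. The table holds 22690 probe sets, and 64 controls were left out. Intensities were logged to base 2 with no constant (all were above 0) and compared in limma 3.58.1 under R 4.3.3 (lmFit, eBayes) without covariates. Values of p were adjusted by Benjamini-Hochberg over all 22626 probe sets. The procedure was run on simulated data with independent noise and changes of known size. That run checked estimates and false calls and set no requirement on how many changes were found. The number of arrays limits the precision.

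Members, gene lists and tests were chosen with earlier results of these data known, so lists got no test. Symbols are those of the array annotation, and the 65 member genes matched RefSeq by gene number. Another 8 probe sets carry several symbols and were left out, so Ndufb4, Ndufa11 and Ndufs6 are not analysed here. Named members are those called with or without 16 added, the 3 highest and 3 lowest of each complex among bright genes, the brightest of each role and genes whose probe sets disagree in sign with 1 of them at an unadjusted p under 0.05, 30 genes in all. Of the comparison lists, called genes and the brightest member qualify. Other genes are named to complete a group and were picked with their values in view. The deviation per array is a median, chosen after a mean proved to move with a dim Uqcrq probe set.

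Alternatives were 16 added to every intensity, quantile normalization, array medians subtracted, only the 15084 brightest probe sets kept, limma-trend, array weights, a replicate block, no _x_at and _s_at probe sets, an FC over 2, unadjusted p, genes by their brightest probe set and each array left out, also with 16 added (this last chosen after seeing the data).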

Additional observations from a re-analysis of the deposited data

How the results depend on the processing

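Counts at an adjusted p under 0.05 depended on how dim probe sets were handled and on the number of arrays. Against 546 of all probe sets, 2 of complex I and 0 of complex V, 16 added gave 1951, 6 and 1, keeping only the 15084 brightest probe sets 1851, 5 and 1, and limma-trend 2350, 12 and 3. Unadjusted p gave 4769, 14 and 4, and an FC over 2 gave 327, 1 and 0. By the brightest probe set per gene, 1 gene of complex I was called. Complex III stayed at 0 in every alternative, unadjusted p included. Leaving out each array gave 1 to 122 of all probe sets, with 1 called without DUC replicate 2, 0 to 1 of complex I and 0 to 0 of complex V. With 16 added as well the counts over all probe sets were 1591, 1570 and 1530 without each DUhTP array and 961, 771 and 773 without each DUC array, with 2 to 6 of complex I and 0 to 3 of complex V. All probe sets split into 308 higher and 238 lower, and into 888 and 1063 with 16 added. Fewer arrays or probe sets enter some of these fits, and the cause of the other shifts was not tested.

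The median log2 fold change without each array was 0.05 to 0.11 in complex I, -0.02 to 0.06 in complex III and -0.01 to 0.04 in complex V, and with 16 added as well 0.05 to 0.10, -0.03 to 0.05 and -0.01 to 0.04. Arrays of the same replicate number did not deviate together (correlations of 0.003, 0.005 and 0.067), so the numbers were not taken as pairs, and a fit with the replicate block called 0 probe sets in all and 0 in complex I, with adjusted p of 0.115 for Ndufv1 and 0.128 for Ndufaf1. Quantile normalization, array medians, array weights and leaving out _x_at and _s_at probe sets each kept the count of called members at 2. Signal over background limits Ndufab1 on 1435934_at, Ppargc1a and other dim probe sets.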
